A study of Mus musculus with 48 samples.

Results

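The unfolded protein response (UPR) is the program by which a cell adjusts its endoplasmic reticulum (ER) to the load of proteins it folds. A list of 34 UPR genes, named by symbol for their known roles, was followed in airspace macrophages. All 34 genes were among the 24411 genes of the count table, and all 34 passed the filter on low counts that left 12634 tested genes. The RNA was that of macrophages washed out of the airspaces of 24 male mice by bronchoalveolar lavage. Of these, 12 were wild type (WT) and 12 were knockouts (KO) for Siglec-F, a lectin that binds sialic acid and marks alveolar macrophages. Naive mice of each genotype had received saline and are marked day 0. The other mice received bleomycin, which causes lung injury followed by fibrosis, into the trachea at 2.5 units/kg and were sampled on day 7, 14 or 21, which gave 3 mice in each of 8 groups. The labels do not state mouse strain, age or how macrophages were separated from other lavage cells, and they name no Cre driver or transgene.

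Library totals ran from 24877049 to 47457085 counts, and levels are given in CPM (counts scaled to a common library size, with TMM factors). Siglecf was at 66.3 to 481 CPM in WT mice and at 0 to 25 counts, no more than 0.577 CPM, in KO mice. Resident alveolar macrophage markers (14 of 14 in the table) summed to 25400 to 32100 CPM in naive WT mice, 9870 to 12500 at day 7, 11900 to 18100 at day 14 and 17400 to 20600 at day 21. In KO mice the sums were 28000 to 29200, 9820 to 13700, 15900 to 27300 and 15100 to 25600. Recruited monocyte and macrophage markers (10 of 10) summed to 178 to 223 CPM in the 6 naive mice and to 1080 to 5540 CPM in the 18 bleomycin-treated mice. The sum of listed interstitial macrophage markers (7 of 7) went from 2.44 to 9.83 CPM up to 371 to 3480 CPM. That rise rests largely on C1qa, C1qb and C1qc, which reached 1417, 976 and 1008 CPM. F13a1 reached at most 131 CPM. Lyve1, Cd163 and Folr2 reached at most 0.39, 0.95 and 11.5 CPM and had no counts in 9, 12 and 4 mice. Whether interstitial macrophages themselves increased was not tested. These marker sums moved with bleomycin, and in bulk RNA fewer cells of a type and less RNA per cell cannot be told apart. The part of either in the results that follow was not tested. Of the markers of plasma cells, whose UPR is strong, 7 of 13 were in the table. The defining genes Jchain, Mzb1 and Tnfrsf17 reached at most 0.617, 0.364 and 0.132 CPM and had no counts in 18, 18 and 17 mice. Pou2af1 reached at most 0.855 CPM. Prdm1, Irf4 and Sdc1 of the same list reached 30, 20.3 and 12.5 CPM. The list summed to 17.8 to 21.6 CPM in naive WT mice and 34.9 to 48.4 CPM at WT day 14. In KO mice these sums were 18.2 to 28.4 and 29.6 to 38.7 CPM. Whether plasma cells were present was not tested.

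On a first principal component of all tested genes, the naive mice lay between -59.2 and -54 and the 9 WT bleomycin mice between 14.1 and 33.1. KO mice 2 and 3 of day 14 lay at 1.63 and -15.8 and KO mouse 1 of day 21 at -20.4, nearer the naive mice than the other 6 KO bleomycin mice, which lay between 18 and 38.7. Values without these 3 KO mice are given beside results that they move.

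Sensors in the ER membrane open the response. IRE1 (Ern1) splices Xbp1 mRNA into the form that encodes an active transcription factor, ATF6 (Atf6) is cut in the Golgi to release one, and PERK (Eif2ak3) phosphorylates eIF2alpha, which slows translation and raises translation of ATF4. XBP1 and ATF6 act on genes for ER chaperones, disulfide isomerases and ER-associated degradation (ERAD), while ATF4 acts on amino acid synthesis genes and on CHOP (Ddit3). Xbp1 is also needed in ordinary secretory cells, without any stress. Gene counts do not separate spliced from unspliced Xbp1 mRNA and do not see ATF6 cleavage or ATF4 translation, so they report the mRNA level of the sensors and of their target genes.

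The elements that these factors bind are known as short promoter sequences, and the members that carry them are listed here. RefSeq promoters (GRCm38.p6) were matched for 30 of the 34 members, and the 250 bases before the start were searched on both strands. The ER stress response element (ERSE) was searched as CCAAT, 9 bases of any kind and CCACG. It was present in 9 of 30 members (30%) against 35 of 27025 genes (0.13%). The 27025 genes include the members, which were listed for known UPR roles. This contrast and those of the other elements are therefore a description and not a test. The 10 matches are written 5′ to 3′ along the element, with the fixed letters in capitals.
Hspa5, chr2:34772025-34772043: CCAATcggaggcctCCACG
Hsp90b1, chr10:86705638-86705656: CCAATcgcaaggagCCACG
Hsp90b1, chr10:86705533-86705551: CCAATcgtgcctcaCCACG
Calr, chr8:84847075-84847093: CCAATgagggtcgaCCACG
Canx, chr11:50325800-50325818: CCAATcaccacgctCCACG
Pdia6, chr12:17266491-17266509: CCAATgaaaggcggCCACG
Dnajc3, chr14:118937827-118937845: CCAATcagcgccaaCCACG
Creld2, chr15:88819520-88819538: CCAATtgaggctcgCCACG
Syvn1, chr19:6046532-6046550: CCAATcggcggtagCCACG
Derl3, chr10:75893242-75893260: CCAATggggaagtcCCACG
The Hspa5 element lay 65 to 47 bases before the RefSeq start, on the strand of the gene. The GENCODE start of Hspa5, at chr2:34771970, lies upstream of this element. The 4 matches in Calr, Creld2, Derl3 and the second of Hsp90b1 were on the opposite strand to the gene.

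ERSE-II, searched as ATTGG, 1 base and CCACG, was found in 1 of 30 members (3.33%), Herpud1, and in 10 of 27025 genes (0.037%). The C/EBP-ATF element through which ATF4 acts, searched as TGATG, 1 base and AA, was found in Asns, Herpud1 and Chac1 (10% of members against 3.91% of genes). The core TGACGTGG of the XBP1-binding UPR element was in 0 of 30 members and 163 genes (0.603%). No match of 1 motif overlapped a match of another. A match is a description of the letters and not evidence of binding. The 250 bases of 2 promoters are printed with these letters in capitals, since Herpud1 and Asns had the largest falls among members in WT mice. Herpud1 holds, in order, the C/EBP-ATF match on the opposite strand and the ERSE-II match. Asns holds the C/EBP-ATF match 23 to 16 bases before its RefSeq start. The GENCODE start of Asns, at chr6:7693254, lies upstream of this match, which is therefore within the gene as positioned below.
Herpud1, chr8:94386179-94386428, plus strand: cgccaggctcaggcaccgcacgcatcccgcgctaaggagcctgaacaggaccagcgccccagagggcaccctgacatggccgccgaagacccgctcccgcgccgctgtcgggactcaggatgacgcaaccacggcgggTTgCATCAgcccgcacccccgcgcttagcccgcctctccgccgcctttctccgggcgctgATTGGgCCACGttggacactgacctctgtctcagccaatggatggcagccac
Asns, chr6:7693210-7693459, minus strand: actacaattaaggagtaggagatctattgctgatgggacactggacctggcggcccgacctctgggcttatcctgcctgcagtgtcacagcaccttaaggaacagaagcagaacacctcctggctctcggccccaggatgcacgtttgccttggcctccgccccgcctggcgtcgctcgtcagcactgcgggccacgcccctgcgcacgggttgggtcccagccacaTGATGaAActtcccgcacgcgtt

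In WT macrophages some UPR genes rose after bleomycin and others fell. Hspa5, Dnajb11 and Edem1 rose by 1.23 to 1.58 times at all 3 days, while Xbp1, Herpud1 and Asns fell at all 3 days. Of the 11 chaperone genes 3 rose at each day, and 1, 1 and 0 fell, and of the 8 ERAD genes 2, 1 and 2 rose and 1 fell at each day. At day 7, 6 members rose (17.6%, against 20.2% of all tested genes) and 4 fell (11.8%, against 15.3%). At day 14, 5 rose (against 18.7% of genes) and 5 fell (against 13.4%). At day 21, 6 rose (against 18.8%) and 4 fell (against 13.7%). These shares are near those of all genes, so the count of members called was not a feature of the list. The median log2 fold change over the 34 members was 0.13, 0.05 and 0.10 at the 3 days, against 0.02, 0.00 and 0.00 over all tested genes. Calls are from edgeR at an adjusted p under 0.05. The day 7 count of 10 was 5 without WT naive mouse 2 and 6 without WT day 7 mouse 1, and the day 14 count of 10 was 6 without WT day 14 mouse 3. The day 21 count of 10 was 6 without WT naive mouse 2 or WT day 21 mouse 1 and 2 without WT day 21 mouse 3. In fits of the compared groups alone, the calls of Sdf2l1, Pdia4 and Derl2 at day 7, of Hspa5 and Dnajc3 at days 14 and 21 and of Edem1 at day 21 were lost. With no filter on low counts, those of Dnajc3 at both days and of Hspa5 at day 21 were lost.

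In KO mice the balance of calls was toward lower levels. At day 7, 3 members rose (8.82%, against 19.7% of all tested genes) and 7 fell (20.6%, against 14.4%). At day 14, 0 rose (against 12% of genes) and 3 fell (8.82%, against 4.84%). At day 21, 0 rose (against 15%) and 6 fell (17.6%, against 6.89%). The median member moved by -0.10, 0.00 and -0.12 on the log2 scale, against 0.02, 0.01 and 0.01 over all genes. DESeq2 and limma-voom also called 0 members higher at day 14 and day 21. At an unadjusted p under 0.05 there were 4 members at day 14 (11.8%, against 29.9% of all tested genes), in either direction. At day 21 there were 9 (26.5%, against 34%), so by this count members changed less often than genes at large. The calls of Creld2 and Hyou1 at day 21 were lost in a fit of those 2 groups alone, and that of Dnajb11 at day 7 with no filter on low counts. The day 7 count of 10 was 6 without KO naive mouse 3 and 5 without KO day 7 mouse 2. The day 21 count of 6 was 11, all lower, without KO day 21 mouse 1. With the 3 KO mice nearest the naive mice all left out, a check added after seeing the data, more members were lower at day 14 and day 21. The share of all genes called in that fit is not given here. That check leaves 1 mouse at day 14, whose spread is assumed to be like that of the other groups. Since the mice were picked for lying near the naive mice, the choice itself favours larger changes without them. The higher counts are therefore no support for a fall. For single genes the values without them are given with no p.

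**Figure D1:**
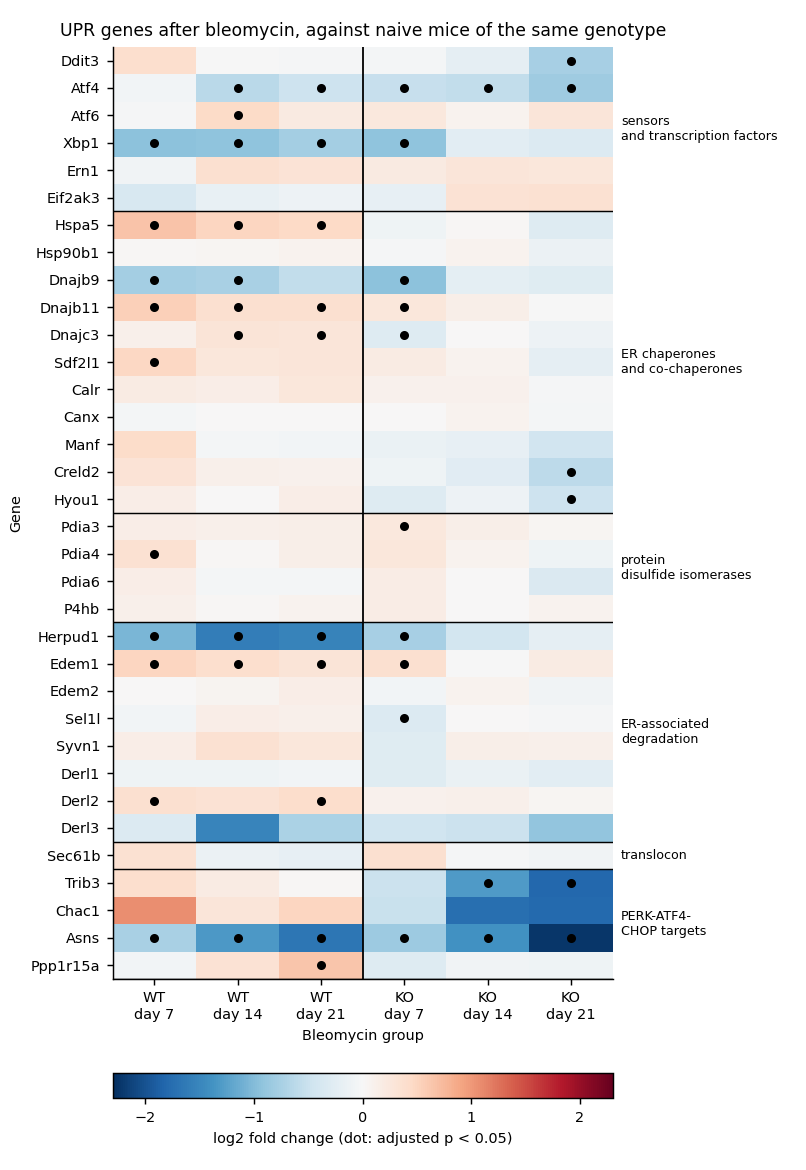
Log2 fold change of each of the 34 genes (rows, by role) in 6 bleomycin groups (columns) against naive mice of the same genotype, with a dot where edgeR's adjusted p was under 0.05. Hspa5, Dnajb11 and Edem1 are red with dots at all 3 WT days, Herpud1 and Xbp1 are blue at the same days, and Asns is blue with a dot in all 6 columns.

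Among the 6 sensors and transcription factors, Xbp1 (chr11:5520659-5525893, plus strand, mm10) had the largest fall in WT mice. Its level was 574, 359 and 436 CPM in the naive WT mice, then 234, 211 and 271 at day 7, 266, 219 and 240 at day 14, and 248, 312 and 233 at day 21. No bleomycin-treated WT mouse reached the lowest naive one. The log2 fold changes were -0.93, -0.92 and -0.79 (SE 0.23 each), with adjusted p of 0.003, 0.004 and 0.011. The day 21 call was lost without WT naive mouse 1 or WT day 21 mouse 3, where the change stayed between -0.93 and -0.59 over all 6 omissions.

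In KO mice Xbp1 fell from 384, 391 and 420 CPM in the naive state to 186, 191 and 249 at day 7, a log2 fold change of -0.93 (SE 0.23, adjusted p = 0.0031). At day 14 the 3 mice had 221, 383 and 403 CPM, and at day 21 they had 447, 246 and 264 CPM. The high values belong to the 3 KO mice nearest the naive mice, and neither day was called (-0.25, adjusted p = 0.51 and -0.32, adjusted p = 0.34). Without those mice, which leaves 1 KO mouse at day 14, the change was -0.84 at day 14 and -0.64 at day 21. Their resident marker sums were 21832, 27336 and 25551 CPM, against 15916, 21726 and 15131 CPM in the other KO mice of days 14 and 21. The part of this in the Xbp1 values was not tested.

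Atf4 (chr15:80255184-80257541, plus strand), which encodes the transcription factor downstream of PERK, was 71.1, 95.6 and 106 CPM in naive WT mice and 64.8, 102 and 93.8 at day 7, so the groups overlapped. It was 53.1, 61.5 and 63.9 CPM at day 14 and 60, 68.9 and 68 at day 21, all below the naive mice. The log2 fold change was -0.61 (SE 0.16, adjusted p = 0.0054) at day 14 and -0.47 (SE 0.16, adjusted p = 0.026) at day 21. The second was lost without WT naive mouse 2 or 3 or WT day 21 mouse 1 or 3 (-0.62 to -0.34 over the omissions). In KO mice Atf4 fell on all 3 days, from 102, 104 and 102 CPM to 77.5, 78.3 and 57.7, then 61, 69.6 and 76.8, then 63.6, 57 and 54.9. Those falls were -0.53, -0.57 and -0.81 (SE 0.16 each; adjusted p = 0.013, 0.016 and 0.00088). The day 7 call was lost without KO day 7 mouse 3 (-0.39) and the day 14 call without KO naive mouse 2 or KO day 14 mouse 1 (-0.65 to -0.49 over the omissions).

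Ddit3 encodes CHOP, the factor tied to death under lasting ER stress, and was low throughout, at 4.09 to 9.13 CPM. In KO mice it fell from 8.16, 7.85 and 8.05 CPM to 5.41, 4.09 and 4.6 at day 21 (log2 fold change -0.77, SE 0.19, adjusted p = 0.0059), and no omission removed that call. In WT mice it was not called at any day (adjusted p = 0.12, 0.98 and 0.94). Exons of Ddit3 overlap those of Mars on the opposite strand, and the use of strand in counting is unknown, so its counts are uncertain. Atf6 rose once, in WT mice at day 14, from 44.9, 64.3 and 63.9 to 75.1, 84.6 and 76.6 CPM (log2 fold change 0.45, SE 0.15, adjusted p = 0.032). The call was lost without WT naive mouse 1 or WT day 14 mouse 2 or 3 (0.30 to 0.53 over the omissions). The sensors Ern1 and Eif2ak3 were not called against naive mice in either genotype, though DESeq2 called Ern1 higher in WT mice at day 14 (0.39, adjusted p = 0.045). Ern1 lay between 15.6 and 30.3 CPM and Eif2ak3 between 24.5 and 54 CPM.

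The 11 ER chaperones and co-chaperones hold the genes most used to read out the UPR, and Hspa5 (chr2:34771970-34777547, plus strand), which encodes BiP, the chaperone that keeps the sensors inactive, is the first of them. It was picked for this description after its values were seen. Naive WT mice had 588, 749 and 961 CPM, and WT mice after bleomycin had 1138, 1048 and 1442 at day 7, 1140, 960 and 1156 at day 14, and 971, 1071 and 1098 at day 21. At day 14 the lowest treated mouse (960 CPM) and the highest naive mouse (961 CPM) were level, and at days 7 and 21 the groups did not overlap. The rises were 0.66, 0.50 and 0.45 on the log2 scale (SE 0.17 each; adjusted p = 0.0049, 0.029 and 0.047), or 1.37 to 1.58 times. The day 14 call was lost without WT naive mouse 1 or 2 or WT day 14 mouse 1 or 3 (0.34 to 0.70), and the day 21 call without any mouse but WT naive mouse 3 (0.29 to 0.65). KO mice showed no rise that passed the test. They had 1161, 909 and 1039 CPM when naive, then 985, 935 and 985, then 835, 1167 and 1177, then 1028, 726 and 786. Their log2 fold changes were -0.10, 0.03 and -0.29 (adjusted p = 0.69, 0.93 and 0.24).

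Dnajb11 (chr16:22857845-22879634, plus strand), which encodes ERdj3, a co-chaperone of BiP, had the smallest adjusted p of any member at day 7 in WT mice. Its level rose from 131, 124 and 149 CPM to 220, 179 and 190 at day 7, 182, 168 and 171 at day 14, and 158, 170 and 192 at day 21, with no overlap with the naive mice. The log2 fold changes were 0.55, 0.37 and 0.37 (SE 0.10 each; adjusted p = 2e-04, 0.0061 and 0.0066), and 1 of these 3 calls was lost in any omission, that of day 21 without WT day 21 mouse 3 (0.28). In KO mice it rose at day 7, from 155, 140 and 141 to 186, 166 and 168 CPM (0.25, SE 0.10, adjusted p = 0.046), a call lost without any mouse but KO naive mouse 1 (0.20 to 0.31). It was 146, 173 and 163 CPM at day 14 and 146, 140 and 148 at day 21, neither called (0.14, adjusted p = 0.36 and -0.01, adjusted p = 0.96).

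Dnajb9 (chr12:44205559-44210326, minus strand) encodes ERdj4, a co-chaperone that represses IRE1, and it fell where Dnajb11 rose. Naive WT mice had 130, 101 and 108 CPM. WT mice after bleomycin had 64.6, 53.5 and 79.2, then 72.3, 63.1 and 66, then 73.3, 84.6 and 71 CPM, all below the naive mice. Day 7 (log2 fold change -0.78, SE 0.28, adjusted p = 0.037) and day 14 (-0.75, SE 0.28, adjusted p = 0.048) were called and day 21 (-0.56, adjusted p = 0.13) was not. The day 7 call was lost without any mouse but WT day 7 mouse 3 (-0.93 to -0.64), and the day 14 call without any of its 6 mice (-0.82 to -0.64). In KO mice it fell at day 7 from 118, 98.2 and 121 to 52.6, 51.7 and 71.9 CPM (-0.94, SE 0.28, adjusted p = 0.014), lost without KO day 7 mouse 1 or 2 (-1.10 to -0.85). The KO mice of day 14 had 55.5, 106 and 126 CPM and those of day 21 had 152, 62.5 and 65 CPM, so the high values were again those of the 3 KO mice named above. Neither day was called with all mice (-0.23, adjusted p = 0.64 and -0.27, adjusted p = 0.54). Without those 3 mice, with 1 mouse left at day 14, the changes were -1.01 and -0.81.

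Of the other 8 chaperones, Sdf2l1, which works with ERdj3, rose in WT mice at day 7 (log2 fold change 0.47, SE 0.16, adjusted p = 0.022; lost without WT naive mouse 2 or WT day 7 mouse 1, 0.27 to 0.61). Dnajc3, an inhibitor of PERK, rose in WT mice by 0.29 at day 14 and 0.28 at day 21 (adjusted p = 0.038 and 0.046) and fell in KO mice at day 7 (-0.30, adjusted p = 0.028). The first of these was lost without any mouse but WT naive mouse 3, the second without WT naive mouse 1 or 2 or WT day 21 mouse 2 or 3, and the last without KO naive mouse 1 or 3 or KO day 7 mouse 2 or 3. Creld2 and Hyou1, a BiP exchange factor, fell in KO mice at day 21, by 0.61 (adjusted p = 0.031) and 0.48 (adjusted p = 0.025) on the log2 scale. Both calls were lost without KO naive mouse 1 or 3 or KO day 21 mouse 2 or 3, and both were as large or larger (-0.81 and -0.61) without the 3 KO mice. Hsp90b1 (GRP94), Calr, Canx and Manf were not called against naive mice by edgeR in any group. Calr in WT mice at day 21 was close to the threshold (0.26, adjusted p = 0.056) and was called higher by DESeq2 (adjusted p = 0.028) and with RLE scaling (adjusted p = 0.046). Canx, a lectin chaperone, was the steadiest of these, at 742 to 918 CPM over the 24 mice.

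The 9 members with an ERSE did not move as 1 block. In WT mice 1, 2 and 2 of the 9 rose at days 7, 14 and 21 (against 20.2%, 18.7% and 18.8% of all tested genes) and 0 fell (against 15.3%, 13.4% and 13.7%). In KO mice 0 rose (against 19.7%, 12% and 15%) and 1, 0 and 1 fell (against 14.4%, 4.84% and 6.89%). The 21 matched members without an ERSE held 5, 2 and 4 rises and 4, 5 and 4 falls in WT mice. The rises with an ERSE were those of Hspa5 and Dnajc3, while Hsp90b1, with 2 matches, stayed within 0.14 of 0 on the log2 scale in all 6 comparisons. With 9 genes these counts are a description, and the WT rises are near the shares of all genes.

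The 4 protein disulfide isomerases, which form and reshuffle disulfide bonds, changed little. Pdia3 (chr2:121413775-121438687, plus strand; ERp57, the partner of Calr and Canx) was 759, 731 and 821 CPM in naive WT mice, then 872, 819 and 867, then 850, 826 and 831, then 829, 799 and 903. Those rises, 0.15, 0.12 and 0.13 on the log2 scale, were not called by edgeR (adjusted p = 0.1, 0.2 and 0.15). DESeq2 called those of day 7 (adjusted p = 0.022) and day 21 (adjusted p = 0.047). In KO mice it rose at day 7 from 709, 708 and 690 to 836, 830 and 816 CPM (0.24, SE 0.07, adjusted p = 0.011), kept in all 6 omissions. It was 740, 800 and 774 CPM at day 14 and 729, 693 and 752 at day 21, and neither was called (adjusted p = 0.19 and 0.7). Exons of Pdia3 overlap Catsper2 on the opposite strand, so its counts are uncertain in the same way as those of Ddit3.

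Pdia6 (chr12:17266545-17284770, plus strand), which also dampens IRE1, was not called against naive mice. WT mice had 366, 326 and 378 CPM when naive, then 450, 355 and 392, then 374, 314 and 346, then 328, 337 and 372. KO mice had 330, 333 and 316 CPM when naive, then 388, 360 and 360, then 274, 355 and 358, then 311, 205 and 263. From day 7 to day 21 it fell in KO mice (log2 fold change -0.51, SE 0.13, adjusted p = 0.01), lost without KO day 7 mouse 1 or KO day 21 mouse 2 (-0.66 to -0.37). Pdia6 shares exon sequence with Atp6v1c2 on the opposite strand. Pdia4 rose in WT mice at day 7 (0.36, SE 0.11, adjusted p = 0.016; lost without WT naive mouse 2 or WT day 7 mouse 1, 0.29 to 0.45), and P4hb was called in no comparison with naive mice.

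Among the 8 ERAD genes the 2 leading members moved in opposite directions. Herpud1 (chr8:94386438-94395377, plus strand) encodes a membrane scaffold of the HRD1 ubiquitin ligase. It was 170, 103 and 125 CPM in naive WT mice, 57.9, 61.8 and 72.6 at day 7, 40.9, 45.4 and 46.4 at day 14, and 49.3, 52.4 and 35.9 at day 21. Each treated WT mouse was below every naive WT mouse. The log2 fold changes were -1.05, -1.58 and -1.53 (SE 0.26 each; adjusted p = 0.0032, 0.00011 and 0.00015), and all 3 calls held in every omission and alternative fit tried.

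Naive KO mice had Herpud1 at 85.7, 90.3 and 90.2 CPM, which was not called against naive WT mice (edgeR adjusted p = 0.52). At day 7 KO mice had 45.9, 43.4 and 67.7 CPM. That fall was -0.76 (SE 0.26, adjusted p = 0.026), lost without KO naive mouse 2 or 3 or KO day 7 mouse 1 or 2 (-0.98 to -0.64). At day 14 the KO mice had 44.5, 69.8 and 84.4 CPM and at day 21 they had 115, 58.2 and 57.2 CPM, not called with all mice (-0.42, adjusted p = 0.29 and -0.21, adjusted p = 0.62). Without the 3 KO mice nearest the naive mice, with 1 mouse left at day 14, the changes were -0.99 and -0.62.

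**Figure D2:**
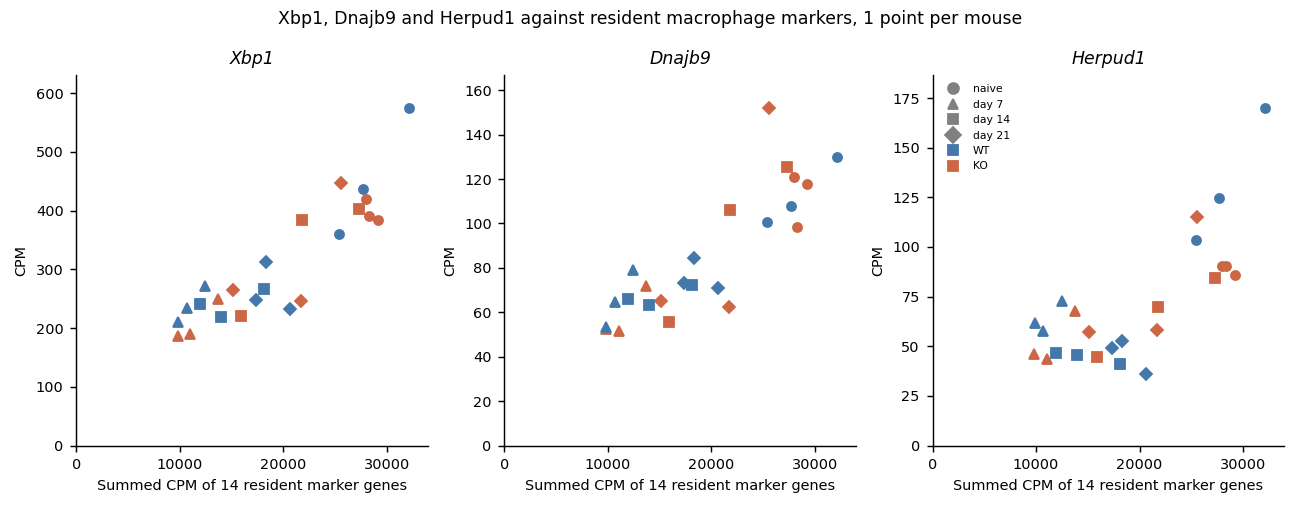
Level of Xbp1, Dnajb9 and Herpud1 (CPM, vertical axis) against the summed CPM of 14 resident alveolar macrophage markers (horizontal axis) in the 24 mice, with shape for day and colour for genotype. The 2 KO mice of day 14 and the KO mouse of day 21 with sums of 21832, 27336 and 25551 CPM lie with or next to the naive mice in the Xbp1 and Dnajb9 panels. KO day 21 mouse 2, with a similar sum of 21726 CPM, lies below the naive mice, at 246 CPM for Xbp1 and 62.5 CPM for Dnajb9.

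The points in that plot fall into separate groups by treatment, so no correlation across them is given.

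Edem1 (chr6:108828641-108859356, plus strand), a lectin that hands misfolded glycoproteins to ERAD, rose where Herpud1 fell. WT mice went from 258, 199 and 192 CPM to 321, 294 and 304, then 269, 281 and 298, then 265, 259 and 277, with no overlap with the naive mice at any day, though by under 1 CPM at day 21. The log2 fold changes were 0.50, 0.39 and 0.30 (SE 0.10 each; adjusted p = 0.00079, 0.0072 and 0.029). The day 14 call was lost without WT naive mouse 3 (0.31), and the day 21 call without WT naive mouse 2 or 3 or WT day 21 mouse 1 or 3 (0.23 to 0.45). In KO mice Edem1 rose at day 7, from 230, 246 and 235 to 322, 309 and 292 CPM (0.38, SE 0.10, adjusted p = 0.0074), kept in all 6 omissions. At day 14 it was 253, 233 and 220 CPM and at day 21 254, 310 and 245 CPM, neither called (-0.01, adjusted p = 0.96 and 0.19, adjusted p = 0.21).

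Of the other ERAD members, Derl2, a channel component, rose in WT mice by 0.38 at day 7 and 0.40 at day 21 (adjusted p = 0.024 and 0.019). The day 7 call was lost without WT naive mouse 2 or 3 or WT day 7 mouse 1 or 3 (0.21 to 0.54) and the day 21 call without WT naive mouse 2 or 3 or WT day 21 mouse 3 (0.36 to 0.48). Sel1l, the adaptor of the HRD1 ligase, fell in KO mice at day 7 (-0.31, SE 0.10, adjusted p = 0.023; lost without KO naive mouse 1 or 3 or KO day 7 mouse 1 or 2). Syvn1, which encodes HRD1 itself, was at 36.9 to 67.8 CPM and was not called, but fits of the compared groups alone called it higher in WT mice on the last 2 days (adjusted p = 0.025 and 0.049). Edem2 and Derl1 were not called. Derl3 was at 7 to 77 counts a library, 0.203 to 1.78 CPM, and its log2 fold changes down to -1.51 carried adjusted p of 0.074 or more by edgeR, while DESeq2 called that fall, in WT mice at day 14 (adjusted p = 0.048). Exons of Derl2 and Syvn1 overlap Mis12 and Mrpl49 on the opposite strand.

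Sec61b (chr4:47474658-47483242, plus strand), a subunit of the channel through which new proteins enter the ER, was not called against naive mice. WT mice had 87.2, 60.9 and 71.3 CPM when naive, then 123, 75.5 and 79.9, then 64.6, 66.9 and 68.6, then 63.9, 61.2 and 67.4. KO mice had 66.1, 66.1 and 70.9, then 97, 85.4 and 80.6, then 61.9, 66.6 and 70.7, then 64.7, 71.7 and 56.2. The day 7 values were high in both genotypes (0.34, adjusted p = 0.079 in WT and 0.37, adjusted p = 0.057 in KO). In KO mice the day 7 rise was called by DESeq2 (adjusted p = 0.038), with RLE scaling (adjusted p = 0.048) and in a fit of those 2 groups alone (adjusted p = 0.0082). From day 7 to day 21 it fell in WT mice (-0.53, SE 0.15, adjusted p = 0.023) and in KO mice (-0.45, SE 0.15, adjusted p = 0.046). The WT call was lost without WT day 7 mouse 1 or any WT day 21 mouse (-0.66 to -0.28), and the KO call without KO day 7 mouse 1 or 2 or KO day 21 mouse 1 or 3 (-0.54 to -0.36).

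Asns (chr6:7675169-7693254, minus strand), which encodes asparagine synthetase and is a standard ATF4 target, was the member that fell in all 6 bleomycin groups. Naive WT mice had 12.7, 12.4 and 12.5 CPM. WT mice then had 8.66, 7 and 6.77 at day 7, 5.08, 5.53 and 4.37 at day 14, and 3.84, 3.46 and 4.59 at day 21. KO mice had 9.91, 13.3 and 11.6 when naive, then 8.27, 6.88 and 4.31, then 5.31, 3.34 and 4.61, then 3.95, 1.59 and 1.84. No treated mouse of either genotype reached the naive mice of its genotype. The log2 fold changes were -0.75, -1.33 and -1.66 in WT mice (SE 0.27, 0.27 and 0.28; adjusted p = 0.034, 0.00089 and 0.00012) and -0.84, -1.40 and -2.24 in KO mice (SE 0.27, 0.27 and 0.28; adjusted p = 0.019, 0.0011 and 8.2e-06). The day 14 and day 21 calls held in all omissions. The WT day 7 call was lost without any mouse but WT day 7 mouse 1 (-0.86 to -0.68) and the KO day 7 call without KO naive mouse 2 or KO day 7 mouse 3 (-1.05 to -0.60).

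Asns also kept falling between days 7 and 21, by 0.91 (SE 0.27, adjusted p = 0.034) in WT mice and 1.40 (SE 0.28, adjusted p = 0.0019) in KO mice on the log2 scale. The WT call was lost without any mouse but WT day 7 mouse 2 (-1.03 to -0.80), and the KO call held in all 6 omissions. In the 3 KO mice with Xbp1 near naive levels, Asns was 3.34, 4.61 and 3.95 CPM, below all 3 naive KO mice. Without those 3 mice the KO changes against naive were -1.12 at day 14, where 1 mouse was left, and -2.75 at day 21.

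Trib3 (chr2:152337422-152344032, minus strand), a pseudokinase induced by ATF4 and CHOP that feeds back on them, changed in KO mice. It was 9.52, 9.71 and 9.21 CPM in naive KO mice, 8.27, 7.49 and 4.36 at day 7, 4.98, 2.59 and 4.01 at day 14, and 2.98, 2.99 and 2.15 at day 21. The falls at day 14 (log2 fold change -1.30, SE 0.31, adjusted p = 0.0058) and day 21 (-1.81, SE 0.31, adjusted p = 0.00029) held in all single-mouse omissions. Without KO day 14 mice 2 and 3 and KO day 21 mouse 1 together, the day 14 change, then of 1 mouse, was -0.92 and was not called. WT mice had 4.58, 5.76 and 3.8 CPM when naive, then 4.62, 4.48 and 9.4, then 4.7, 3.92 and 7.45, then 4.56, 4.5 and 5.29, and were not called (adjusted p = 0.35, 0.68 and 0.96).

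Ppp1r15a (GADD34), which directs the phosphatase that reverses eIF2alpha phosphorylation, rose in WT mice at day 21, from 4.04, 6.52 and 6.65 to 9.32, 9.07 and 8.64 CPM (0.64, SE 0.21, adjusted p = 0.026). The call was lost without WT naive mouse 1 or any WT day 21 mouse (0.45 to 0.77). Its exons overlap Tulp2 on the opposite strand. Chac1, which degrades glutathione, was at 3 to 65 counts a library, 0.122 to 1.69 CPM, and was not called. Its log2 fold changes, from -1.78 to 1.08, came with adjusted p of 0.096 or more by edgeR, while limma-voom called the fall in KO mice at day 21 (-1.89, adjusted p = 0.045).

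**Figure D3:**
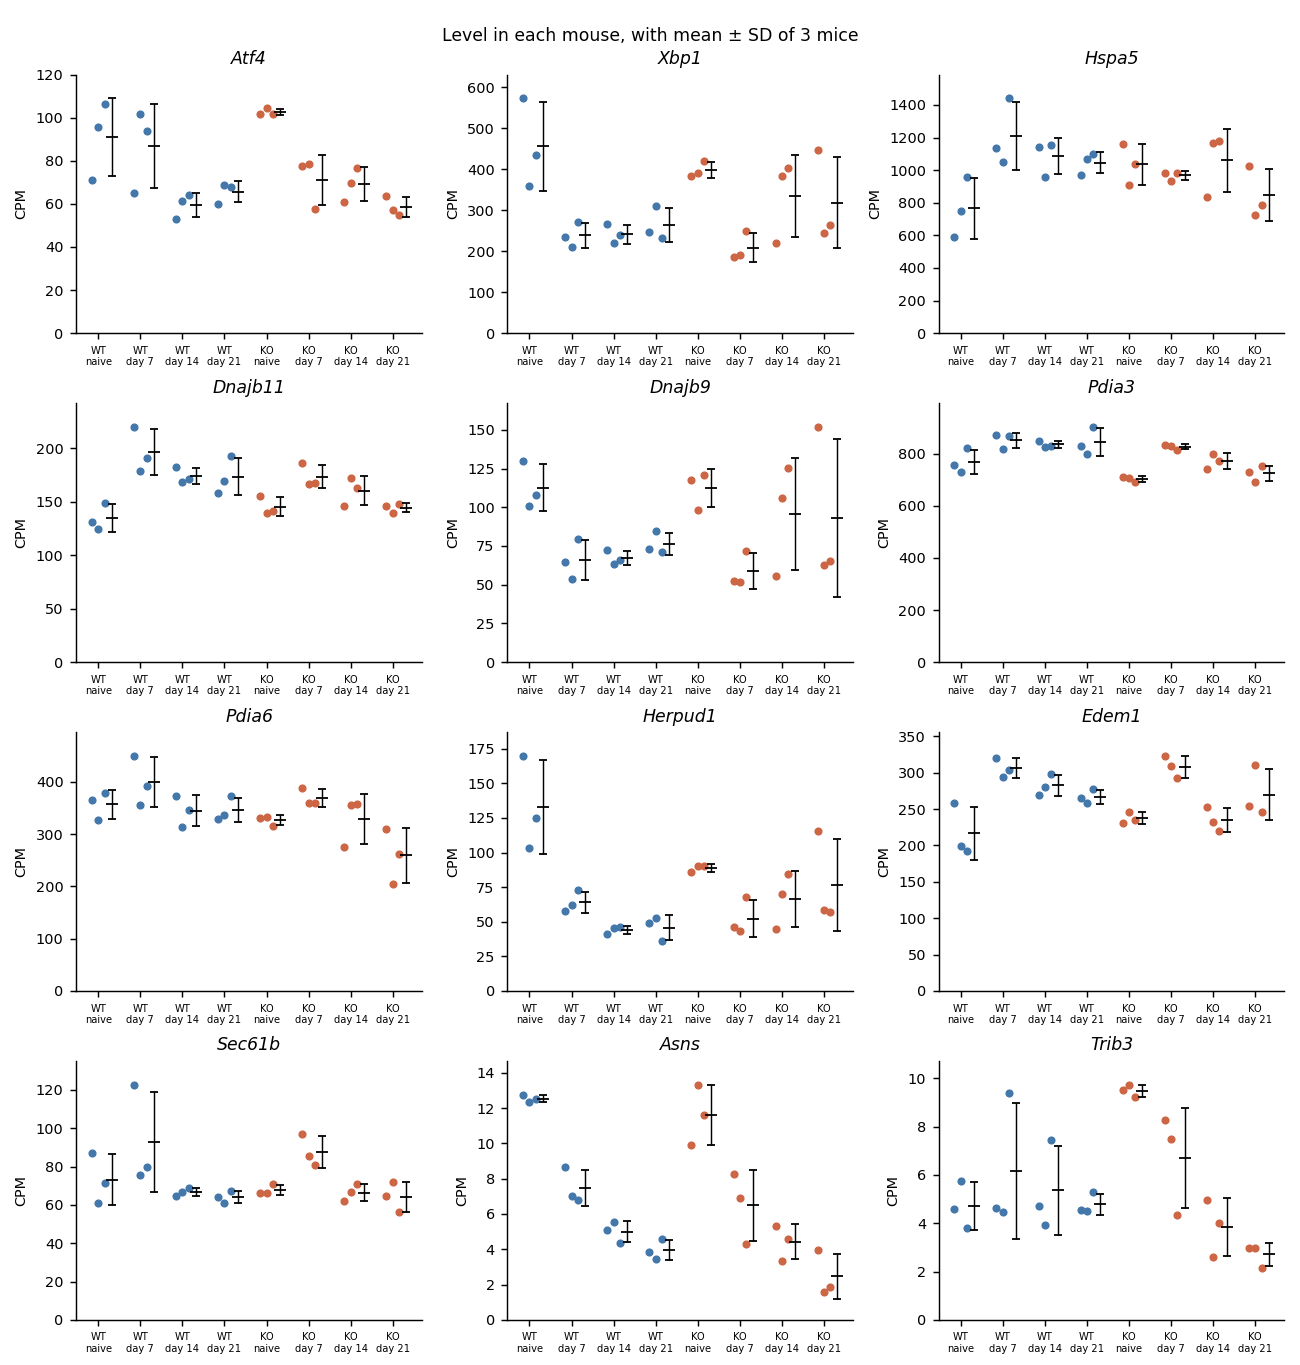
Level of 12 members in each of the 24 mice (CPM, linear axis from 0), with the mean and SD of the 3 mice of each group beside them. Asns is below 9 CPM in all 18 bleomycin-treated mice and above 9 CPM in the 6 naive mice, and Trib3 separates naive KO mice (9.21 to 9.71 CPM) from naive WT mice (3.8 to 5.76 CPM).

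Between days 7 and 21 within a genotype, 1 member rose and 2 fell in WT mice (against 5.49% and 6.15% of all tested genes), and 1 rose and 6 fell in KO mice (2.94% and 17.6%, against 7.16% and 7.73%). The WT genes were Ppp1r15a, higher, and Asns and Sec61b, lower. The WT count of 3 was 1 without WT day 7 mouse 1 or 3 and 0 without any of the 3 WT day 21 mice. The KO genes were Eif2ak3 (PERK), higher by 0.54 (adjusted p = 0.045), and Ddit3, Pdia4, Pdia6, Trib3, Asns and Sec61b, lower. The KO count of 7 was 3 without KO day 7 mouse 1 or 2 and 4 without KO day 21 mouse 3. A fit of these 2 KO groups alone called 0 of the 34 members, and DESeq2 called 11. Without the 3 KO mice nearest the naive mice Eif2ak3 (0.47) and Sec61b (-0.46) were not called.

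KO and WT mice were compared at each time. No UPR gene was called between the genotypes by edgeR at any time. In naive mice 0 of 34 were called (against 0.546% of all tested genes), with 7 at an unadjusted p under 0.05 (20.6%, against 8.33% of genes). At day 7, 0 were called (against 0.00792%), with 0 at an unadjusted p under 0.05. At day 14, 0 were called (against 0.135%), with 4 at an unadjusted p under 0.05 (11.8%, against 10% of genes). At day 21, 0 were called (against 0.095%), with 12 at an unadjusted p under 0.05 (35.3%, against 9.78%). Over the mean of days 7, 14 and 21, 0 were called (against 0.507%), with 8 at an unadjusted p under 0.05 (23.5%, against 13%). DESeq2 called 1 member at day 21 and 1 over the mean of days, Pdia3 each time, and 0 in naive mice, at day 7 and at day 14. Limma-voom called 0 in all 5 comparisons. Few genes of any kind were called between the genotypes, so a missed threshold does not show that the levels were alike.

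In naive mice the largest difference, apart from the low-count Chac1 (1.56, adjusted p = 0.6), was in Trib3, at 9.48 ± 0.253 CPM (SD, n = 3) in KO mice against 4.71 ± 0.985 in WT mice, with no overlap. The log2 difference was 1.01 (95% interval 0.37 to 1.65), and it did not pass the correction (adjusted p = 0.21). Hspa5 averaged 1037 ± 126 CPM in naive KO mice against 766 ± 187 in naive WT mice, overlapping, with an interval of 0.08 to 0.79 (adjusted p = 0.42). Herpud1 was lower in naive KO mice, at 88.7 ± 2.65 against 133 ± 33.9 CPM without overlap, with an interval of -1.11 to -0.05 (adjusted p = 0.52). In all, 23 of 34 members lay above 0 in this comparison and the median difference was 0.08, against 0.00 over all genes.

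At day 21 the signs were the other way for most members, with 23 of 34 below 0 and a median of -0.15, against 0.01 over all genes. Pdia3 averaged 725 ± 29.6 CPM in KO mice against 844 ± 53.7 in WT mice without overlap, a log2 difference of -0.22 (interval -0.36 to -0.08, adjusted p = 0.23 by edgeR and 0.037 by DESeq2). Pdia6 was at 259 ± 53.2 against 346 ± 23.5 CPM (-0.42, interval -0.68 to -0.15, adjusted p = 0.23). Trib3 was at 2.71 ± 0.484 against 4.78 ± 0.436 CPM (-0.82, interval -1.48 to -0.17, adjusted p = 0.37). Herpud1 was higher in KO mice, at 76.9 ± 33.2 against 45.8 ± 8.79 CPM (0.75, interval 0.21 to 1.28, adjusted p = 0.3), and the highest KO value, 115 CPM, was that of KO day 21 mouse 1. Without the 3 KO mice nearest the naive mice the Herpud1 difference was 0.33.

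The response to bleomycin was then compared between the genotypes, as the KO log2 fold change minus the WT one. At day 7, 0 of 34 members were called by edgeR (against 0.00792% of all tested genes), with 5 at an unadjusted p under 0.05 (14.7%, against 6.14% of genes). At day 14, 0 were called (against 0.332%), with 4 at an unadjusted p under 0.05 (11.8%, against 10.3% of genes). At day 21, 0 were called (against 0.332%), with 11 at an unadjusted p under 0.05 (32.4%, against 10.8% of genes). Limma-voom called 0 at all 3 days. DESeq2 called 0, 0 and 2, the last being Trib3, lower, and Herpud1, higher. Without KO day 14 mouse 1 edgeR called 1 member, Herpud1, at day 14 (1.38, adjusted p = 0.048), an omission that leaves KO day 14 mice 2 and 3, which lay near the naive mice. Leaving out those 2 and KO day 21 mouse 1 instead gave 0.60 for Herpud1, and 0 members were called. A fit of the 4 groups alone called Trib3 at day 21 (-1.82, adjusted p = 0.034).

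Trib3 had the smallest adjusted p of these differences, at day 21. Its response was 0.02 in WT and -1.81 in KO mice, a difference of -1.83 (SE 0.44, adjusted p = 0.078). Without KO day 21 mouse 1 and the other KO mice near the naive ones it was -1.91. For Herpud1 the difference was 1.33 (SE 0.36, adjusted p = 0.12) at day 21 and 1.16 (SE 0.36, adjusted p = 0.19) at day 14. Without KO day 14 mice 2 and 3 and KO day 21 mouse 1 these were 0.91 and 0.60, so both were smaller without those mice. The naive KO minus WT difference in Herpud1, -0.58 and not called, enters both values. With 1 KO mouse left at day 14, KO and WT mice differed by 0.02 at that day. For Hspa5 the difference in response was -0.76 (SE 0.24, adjusted p = 0.44) at day 7 and -0.74 (SE 0.24, adjusted p = 0.2) at day 21. The difference was below 0 in 24, 21 and 27 of the 34 members at the 3 days, with a median of -0.15, -0.08 and -0.23 against 0.01 over all genes at each day. The 3 differences share the naive mice, so they are not separate evidence.

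**Figure D4:**
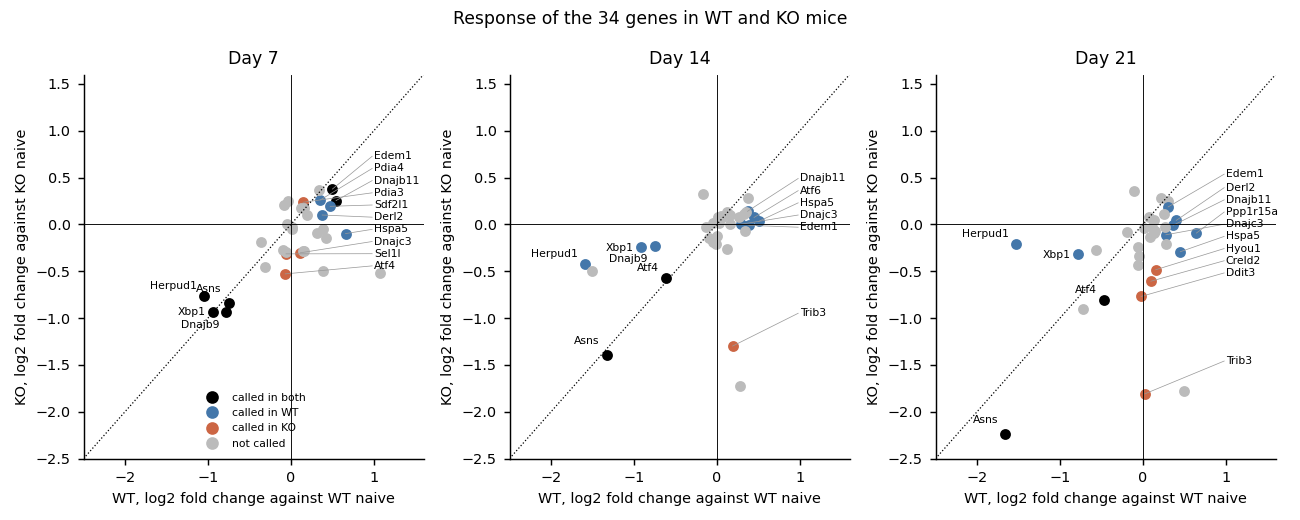
Log2 fold change against naive mice in WT (horizontal axis) and KO mice (vertical axis) for the 34 members at each day, coloured by whether edgeR called the change in WT, in KO, in both or in neither, with a dotted line at equal change. Asns lies near the dotted line at days 7 and 14, while Trib3 lies at 0.02 on the WT axis and -1.81 on the KO axis at day 21.

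Genes of the same pathways outside the 34 were taken from 6 lists with 132 tested genes. Over all tested genes, 20.2%, 18.7% and 18.8% were called higher and 15.3%, 13.4% and 13.7% lower in WT mice at days 7, 14 and 21. In KO mice the shares were 19.7%, 12% and 15% higher and 14.4%, 4.84% and 6.89% lower, and the counts of each list are to be read against these. Of 25 ER folding and redox genes tested, 12, 11 and 9 rose in WT mice, 9, 5 and 5 rose in KO mice and 0 fell in either. Erp29, an ER chaperone of secretory proteins, went from 151, 132 and 148 CPM in naive WT mice to 323, 265 and 238 at day 7 (log2 fold change 0.94, SE 0.11, adjusted p = 2.3e-06) and was called higher in all 6 groups, down to 0.39 (adjusted p = 0.015) in KO mice at day 21. Fkbp11, a prolyl isomerase of secretory cells, rose from 0.583, 0.264 and 0.732 CPM to 3.54, 3.81 and 4.73 in WT mice at day 21 (2.91, SE 0.39, adjusted p = 1.1e-05) and in the other 5 groups too, though it stayed at 6.09 CPM or less.

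Other ATF4 targets were mostly genes of amino acid supply and tRNA charging. Of 22 tested, 6, 8 and 10 fell in WT mice and 5, 8 and 10 in KO mice, while 3, 2 and 1 rose in WT mice and 3, 1 and 1 in KO mice. The median log2 fold change of these genes was -0.03, -0.27 and -0.34 in WT and -0.06, -0.19 and -0.31 in KO mice, against medians of all tested genes within 0.02 of 0. Mthfd2, of mitochondrial folate metabolism, was 33, 29.5 and 31.2 CPM in naive WT mice and 15.7, 16.8 and 17 at day 21 (-0.92, SE 0.15, adjusted p = 0.00013), and in KO mice at day 21 it was 14.2, 11.6 and 11.8 CPM (-1.44, SE 0.16, adjusted p = 1.4e-06). Psat1, of serine synthesis, went the other way at day 7, with 0.69 (adjusted p = 0.017) in WT and 0.95 (adjusted p = 0.0021) in KO mice, and was not called later.

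Slc7a5, the LAT1 amino acid transporter, fell in all 6 groups, by 0.62 to 1.07 on the log2 scale, and was the gene of the 132 called between genotypes. Averaged over days 7, 14 and 21 it stood at 73.6 CPM in KO mice against 52.7 CPM in WT mice (log2 difference 0.49, SE 0.10, adjusted p = 0.037). In that comparison 0.507% of all tested genes were called. Whether the Slc7a5 call holds in omissions of mice or in other fits was not examined. Per mouse the KO values ran from 55.2 to 94.1 CPM and the WT values from 41.6 to 72.1 CPM, so they overlapped.

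Among 21 other sensors, kinases and stress regulators, 5, 4 and 3 rose and 6, 6 and 3 fell in WT mice, and 3, 0 and 1 rose and 6, 1 and 1 fell in KO mice. The rises in WT mice were near the shares of all genes. Atf5, an ATF4-like factor, fell in all 6 groups. WT mice went from 53.6, 50.1 and 54.3 CPM to 18.8, 20.6 and 21.4 at day 21 (-1.38, SE 0.20, adjusted p = 2.2e-05), and KO mice from 68, 78.9 and 79.7 to 26.1, 17.2 and 15.5 (-1.95, SE 0.20, adjusted p = 7e-07). Wfs1, an ER membrane protein and XBP1 target, rose on all 3 WT days, to 1.82 (SE 0.25, adjusted p = 1.7e-05) at day 21, and in KO mice at day 21 (1.23, SE 0.25, adjusted p = 0.0011).

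Of 23 translocation and N-glycosylation genes tested, 6, 1 and 0 rose in WT and 7, 0 and 0 in KO mice, with 1, 0 and 1 falling in WT and 1, 0 and 0 in KO mice. The day 7 count in WT mice is near the 20.2% of all genes. Ssr2, of the translocon-associated complex, was 136, 97 and 96.7 CPM in WT mice at day 7 against 69.4, 57.1 and 65.1 when naive (0.78, SE 0.12, adjusted p = 2.9e-05), and Ostc, of the oligosaccharyltransferase, rose by 0.60 in WT and 0.53 in KO mice at day 7. Of 20 other ERAD genes tested, 0, 1 and 1 rose and 3, 2 and 2 fell in WT mice, and 1, 0 and 1 rose and 2, 0 and 0 fell in KO mice. Herpud2, the paralogue of Herpud1, fell on all 3 WT days (-0.52, -0.41 and -0.43), as did the ubiquitin ligase gene Rnf185 (-0.66, -0.50 and -0.49). ER to Golgi genes (21 tested) had 3, 2 and 2 rises and 1, 0 and 0 falls in WT mice and 2, 1 and 1 rises and 1, 0 and 2 falls in KO mice, with Mcfd2, a cargo receptor subunit, higher in all 6 groups.

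**Figure D5:**
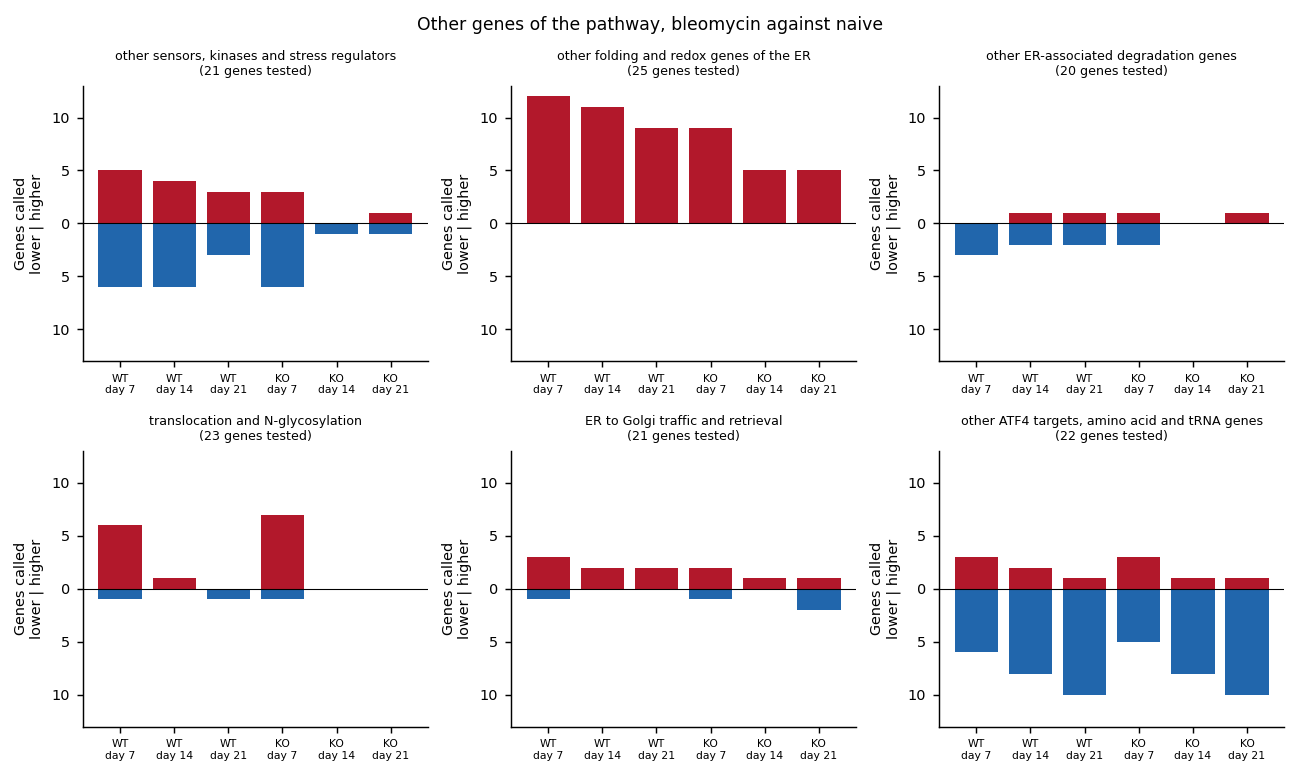
Number of genes called higher (up, red) and lower (down, blue) than naive mice in 6 pathway lists outside the 34 members, for 3 WT and 3 KO bleomycin groups. The folding and redox list has 12 to 5 genes higher and 0 lower, and the ATF4 target list has up to 10 lower.

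Levels between genes were compared per kilobase of exon. In naive WT mice Calr was highest at 621 CPM per kilobase, followed by P4hb at 291, Pdia3 at 245, Hsp90b1 at 208, Canx at 185 and Hspa5 at 181. Xbp1 was at 141, Herpud1 at 56.9 and Atf4 at 38.6 CPM per kilobase. The sensors Eif2ak3, Atf6 and Ern1 were at 7.87, 6.25 and 2.54 CPM per kilobase, and Asns, Trib3, Ppp1r15a, Derl3 and Chac1 were at 4.58, 2.22, 1.95, 0.573 and 0.198. Ddit3 was left out because 2 annotated genes carry its name. The list roles overlapped on this scale. The chaperone genes Hyou1, Creld2, Manf and Dnajc3, at 30.3 to 33.7 CPM per kilobase, were below Atf4, and Xbp1 was above Pdia4 and Pdia6. Fold changes of the lowest 2 genes rest on few counts.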

How the data were processed

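Airspace macrophage RNA of 24 mice was profiled, and the authors deposited expected counts per gene, estimated read counts of which 3.11 to 3.85% were not whole. Per the submitters' processing notes, the mm10 build, bcl2fastq, DESeq2 1.42.0 and limma 3.58.1 were used. Aligner, counting tool and strand use: not given in the sources used here. Each mouse was sequenced in 2 runs, and whether its column sums both is not stated in the labels. A further 24 columns belong to other samples and were not used.

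Counts were rounded. Genes were kept with filterByExpr (minimum count 10, minimum total 15), scaled with TMM and fitted with edgeR 4.0.16 (R 4.3.3) as 1 quasi-likelihood model of 8 groups (16 residual degrees of freedom). Calls needed a Benjamini-Hochberg adjusted p under 0.05 over 12634 genes, in 16 comparisons. Reads carry no molecular identifiers. The ribosomal gene Rn45s took 0.743 to 8.19% of counts. Mice within a group differed far beyond sampling noise (chi-square over its degrees of freedom 13.1 to 216). The labels number mice within groups, so p-values reflect the spread between these mice.

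Members and lists were chosen with earlier results of these data known. Per-mouse values are given for the 2 members of each role with the smallest overall p, and for members called between genotypes. Other members described were chosen after their values were seen. From each pathway list the same rule names at most 2 genes, plus any called between genotypes. Alternatives were DESeq2, limma-voom, RLE scaling, no filter, the compared groups alone, Rn45s removed, a replicate block and omission of each mouse. Gene positions and exon lengths are from GENCODE M21. The fit was tested on simulated data, in which many changes set in genes at low CPM were missed. The mark for passing, first set over genes of all levels, was not met and was replaced by marks that take the level into account.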

Additional observations from a re-analysis of the deposited data

How the results depend on the processing

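None of the 59 calls of a member in a comparison changed sign under any setting. Of these, 21 held in every alternative fit and every omission of 1 mouse. With 1 mouse left out, 36 were lost at least once, and 20 were lost in at least 1 alternative fit. The fit without the 3 KO mice nearest the naive mice is not part of these 3 counts. Leaving out 1 mouse at a time moved the number of members called from 10 to 5 to 11 (WT day 7), 6 to 8 (WT day 14), 2 to 7 (WT day 21) and 5 to 8 (KO day 7), from 3 to 2 to 3 (KO day 14), from 6 to 4 to 11 (KO day 21), from 3 to 0 to 3 (WT day 21 against day 7), from 7 to 3 to 7 (KO day 21 against day 7), and from 0 to 0 to 1 for the difference in response at day 14. DESeq2 gave 1 member between the genotypes at day 21, 1 over the mean of days, 2 for the difference in response at day 21 and 11 for KO day 21 against day 7. A fit of the compared groups alone gave 1 for the difference in response at day 21 and 0 for KO day 21 against day 7, and fewer samples share its estimate of spread. Leaving out the 3 KO mice nearest the naive mice, chosen after seeing the data, gave 7 at KO day 14 and 13 at KO day 21. Calls were gained as well as lost: Derl2 at WT day 14 (adjusted p = 0.052) was called by DESeq2, limma-voom, RLE scaling and a fit of the compared groups (adjusted p = 0.035 to 0.048), and at KO day 7 the fit of the compared groups added Atf6, Pdia4 and Sec61b, higher, and Derl1 and Hyou1, lower. RLE scaling, no filter, limma-voom and removal of Rn45s kept every count within 1.5 times, and scaling moved the median gene by at most 0.02 on the log2 scale.

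Of 84 pairs of same-numbered mice from different groups, 18 had deviations correlated above 0.1 (range -0.64 to 0.60). Differently numbered mice were not compared, so these values cannot show whether mouse numbers pair the samples. With the replicate block no count moved by more than 1.5 times. WT day 14 had 11 members called, WT day 21 10, KO day 7 11 and KO day 21 against day 7 8. With the block Dnajb9 at WT day 14 and Dnajc3 at WT day 21 were no longer called (adjusted p = 0.052 each). Ern1 and Derl2 at WT day 14, Calr at WT day 21, Derl1 at KO day 7 and Sdf2l1 between KO days 7 and 21 were newly called (adjusted p = 0.035 to 0.047).

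Depth limits Derl3 and Chac1, at 3 to 77 counts a library. With 3 mice a group and few genes called between genotypes, differences of the size seen in Trib3 did not pass the correction.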
